A study of Mus musculus with 4 samples.

Results

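10 genes of the tumor necrosis factor (TNF), interleukin-1 (IL-1) and inflammasome systems were followed in the nasal mucosa of young adult and aged mice: Tnf, Il1a, Il1b, Il1rn, Il1r1, Il18, Nlrp3, Casp1, Nfkbia and Tnfaip3. They were chosen by name, through the transcript accession that the array design gives each probe, and make up 10 of the 45604 genes tested. In that count, and in every share of all genes below, probes without a gene symbol are grouped by the identifier that the array design gives. The 10 genes were read by 13 of the 56593 probes tested, with 2 probes each for Tnf, Il1b and Il1rn and 1 probe for each of the other genes. The probes are named here by their array identifiers, and their sequences were not used here.

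The samples were septal nasal mucosa, labelled as olfactory epithelium, of C57BL/6J mice that had received no treatment named for this study. Young adult mice were 8 weeks old and aged mice were 16 months old, and each age was measured on 2 one-color arrays, each loaded with RNA pooled from 5 mice. A description line in the labels names silica aspiration and lung cells, which matches neither the tissue label nor the design, and it was not used. The mice allotted to gene analyses are fewer than 2 separate pools of 5 would need, so whether pools of an age share mice is not stated, and P-values measure only the spread between arrays, which may be technical.

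Several facts of the arrays stand beside every result. The methods describe male mice, yet Xist was well above background on all 4 arrays, at 612 to 645, and of 11 probes for 8 Y-linked genes only 1 was well above background on any array, with levels from 7.48 to 63.0. This holds for both ages alike, and the sex of the pools was not settled here. Young adult array 1 and aged array 1 shared a slide, and the other two arrays lay on slides of their own. Median local background was 67 and 63 on the shared slide and 32 and 39 on the separate slides, and 63.1% to 76.8% of spots were well above background. All 8 markers of mature olfactory neurons and all 5 markers of sustentacular cells were well above background on every array. In such bulk RNA, fewer cells of a type and less RNA per cell cannot be told apart.

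TNF and the IL-1 cytokines are alarm signals released mainly by macrophages and other innate immune cells, and they act on receptors carried by most cells of a mucosa. Their receptors signal through adaptor proteins to the IκB kinases, which mark IκB proteins for destruction and free the transcription factor NF-κB. The inflammasome is a second layer: the sensor NLRP3 assembles with an adaptor and caspase-1, which cuts the precursors of IL-1β and IL-18 into their active forms, a step that RNA levels do not measure. In the olfactory epithelium of mice, sustained TNF is known to cost olfactory neurons and to hold back their renewal.

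At the level of genes, none of the 10 passed both thresholds (limma P below 0.05 and false discovery rate, FDR, below 0.25 over all genes). The count was 0 higher and 0 lower in aged mice, beside 1.65% and 2.33% of all genes, and the smallest FDR of a member was 0.309. At an unadjusted P below 0.05 the count was 4 of 10 (Tnf, Il18, Casp1 and Nfkbia), beside 13.1% of all genes. The members went both ways. Il1b, Il18, Nfkbia and Tnfaip3 were higher on both aged arrays than on either young adult array, which makes 4 of 10 beside 24.2% of all genes. Tnf, Il1rn and Casp1 were lower on both aged arrays, which makes 3 of 10 beside 21.8% of all genes, and the arrays of the 2 ages overlapped for Il1a, Il1r1 and Nlrp3. The median log2 fold change of the 10 genes was -0.01, beside 0.0093 over all genes. The widest gene-level difference was that of Tnf, 1.40-fold lower in aged mice, so none reached the 1.5-fold limit that the methods set. No permutation test was made, since exact enumeration over 2 arrays per age gives no two-sided P smaller than 0.333.

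The calls differed between fits. When the spread was allowed to follow intensity, Il18, Nfkbia and Tnfaip3 passed as higher and Tnf and Casp1 as lower, beside 7.92% and 7.71% of all genes. When probes were kept only if at least 1 age had both of its arrays well above background, 9 of the 10 genes stayed in, and the same 5 passed together with Il1rn as lower, beside 11.7% and 12.6% of the 29495 genes left. Tnf and Il1rn each kept a probe there through the young adult arrays alone. With any 1 array left out, no gene on the array passed in limma, while 0 to 2 member genes kept an unadjusted P below 0.05.

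**Figure D1:**
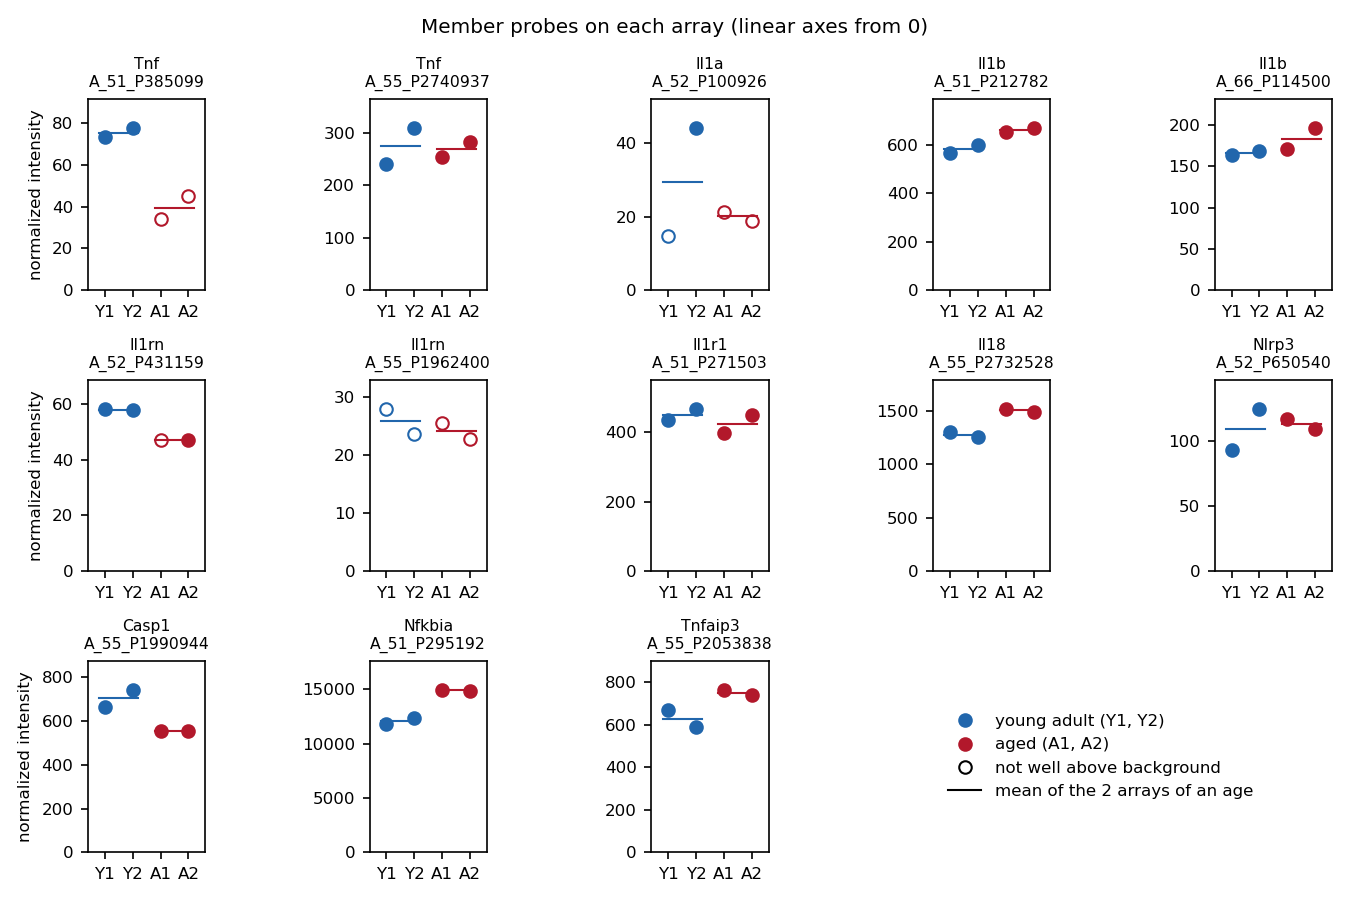
Normalized intensity (vertical axes, linear from 0) of each of the 13 member probes on the 2 young adult arrays (Y1, Y2) and the 2 aged arrays (A1, A2); open circles were not well above background and lines are the means of the 2 arrays of an age. One of the 2 Tnf probes sits at 73.1 and 77.4 in young adult mice and at 34.1 and 44.9 in aged mice, while the other overlaps between ages.

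At the level of probes, 1 of 13 was called, a Tnf probe that was lower in aged mice, and 0 were called higher. Over all probes the shares were 2.65% lower and 1.84% higher. An unadjusted P below 0.05 was found for 5 of 13 member probes, beside 13.5% of all probes. Of the 13 probes, 9 were well above background on all 4 arrays.

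Tnf, which encodes the founding cytokine of the TNF family, was called through 1 of its probes and not through the other, although the array design assigns both to the same transcript. Probe A_51_P385099 read 73.1 and 77.4 in young adult mice and 34.1 and 44.9 in aged mice. The ages lay apart, and neither aged array was well above background, so the aged level is not firmly measured. Both aged readings exceeded the lowest signal well above background on their arrays, 25.9 and 31.5, so that signal set no limit. The fitted level was 1.92-fold lower in aged mice (log2 fold change -0.94, SE 0.17, limma FDR = 0.231), which is an estimate and not a least difference. That size holds for this background correction alone, since the fitted value ran from -1.76 to -0.49 over the alternatives. Its bare spot signal on the shared slide was 116 over a local background of 66 in young adult mice and 74 over 63 in aged mice.

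Probe A_55_P2740937 was brighter and well above background on every array. It read 240 and 308 in young adult mice and 254 and 282 in aged mice. Here the aged arrays lay between the young adult arrays, and the log2 fold change was -0.02 (95% interval -0.52 to 0.47, limma FDR = 0.96). The mean of both probes gave Tnf a log2 fold change of -0.48 (SE 0.15, limma FDR = 0.365), a value that neither probe showed by itself. With the brighter probe alone standing for the gene it was -0.02.

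The difference between the 2 probes was tested over the 6149 genes with exactly 2 probes, a comparison added after the values had been seen. It was not called for Tnf (limma FDR = 0.753). The same test called 0 of the 6149 genes, so it cannot decide whether the Tnf probes differ. Of all those pairs, 3.27% lay at least as far apart as the Tnf pair. Among the 4502 pairs detected in young adult mice the share was 0.689%. The dimmer Tnf probe passes that filter only through the age where it reads higher. The smaller share is therefore no evidence that the Tnf probes differ. The aged readings of the dimmer probe in that test are not well above background, so no size is given for the difference.

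**Figure D2:**
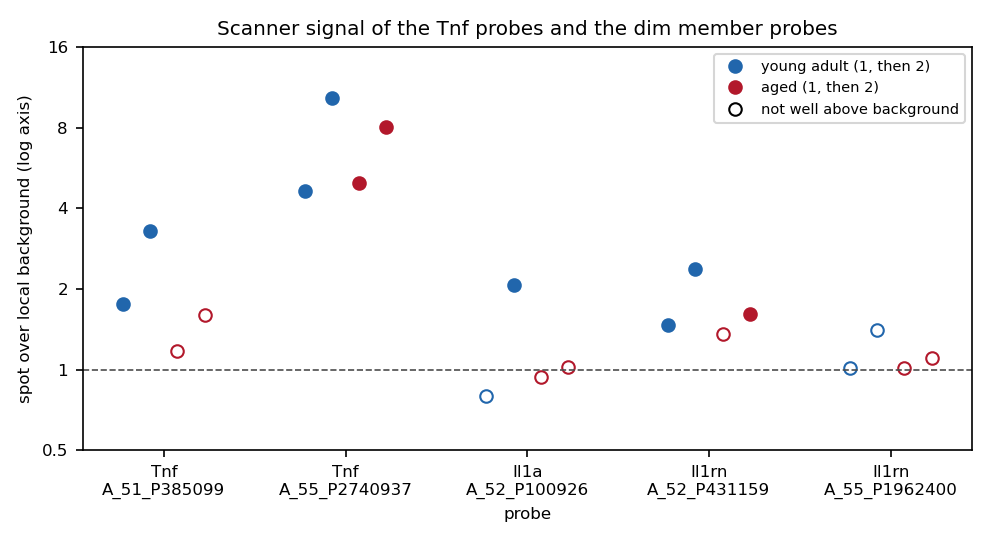
Median spot signal divided by median local background before any normalization (vertical axis, log scale) for both Tnf probes and the 3 member probes that were not well above background on every array; the dashed line marks a spot as bright as its surroundings. The brighter Tnf probe stays between 4.65 and 10.3 on all arrays, while the dimmer one goes from 1.76 and 3.30 in young adult mice to 1.17 and 1.61 in aged mice.

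Il1a and Il1b encode the agonists of the IL-1 receptor, IL-1α held in cells and released on damage and IL-1β made as an inactive precursor. Il1a was close to background throughout. Its probe read 14.7 and 44.1 in young adult mice and 21.4 and 19.0 in aged mice, and only the second young adult array was well above background. No fold change and no direction can be given for it.

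Il1b was measured well above background by both of its probes on every array. Probe A_51_P212782 read 563 and 598 in young adult mice and 652 and 668 in aged mice, and probe A_66_P114500 read 164 and 168, then 171 and 196. Both probes put each aged array above each young adult array, by log2 values of 0.18 and 0.14. For the gene the log2 fold change was 0.16 (SE 0.09, 95% interval -0.11 to 0.43), which did not pass (limma FDR = 0.547).

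Il1rn encodes the receptor antagonist, which occupies the IL-1 receptor without setting it off. Its probe A_52_P431159 read 58.0 and 57.5 in young adult mice and 47.0 and 46.9 in aged mice, and was well above background on 3 of the 4 arrays. The arrays of an age nearly coincided, and the log2 fold change was -0.30 (SE 0.07, limma FDR = 0.292), with a range of -0.82 to -0.15 over the alternatives. The other probe, A_55_P1962400, was not well above background on any array, at 22.8 to 27.9. It enters the mean of the gene with the same weight as the first, and the log2 fold change of that mean was -0.19 (limma FDR = 0.501), with a range of -0.43 to -0.09.

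Il18, the other cytokine that caspase-1 matures, is known to be made constitutively by epithelial cells. It read 1300 and 1253 in young adult mice and 1514 and 1491 in aged mice. The ages lay apart by more than the SD of either, with means of 1276 ± 33.1 and 1502 ± 16.4 (SD, n = 2). The log2 fold change of 0.24 (SE 0.077) had a limma FDR of 0.374.

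Il1r1, the receptor through which both IL-1 agonists signal, overlapped between ages. It read 434 and 465 in young adult mice and 398 and 448 in aged mice. The log2 fold change was -0.09 with a 95% interval of -0.41 to 0.23, which spans 0.755-fold to 1.17-fold.

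Nlrp3 and Casp1 encode the sensor and the protease of the inflammasome, and they differed in how far the ages lay apart. Nlrp3 read 93.7 and 125 in young adult mice and 117 and 110 in aged mice. The aged values fell inside the young adult range, and the log2 fold change was 0.07 with a 95% interval of -0.47 to 0.60. Its difference was 0.32 on the shared slide and -0.19 between the separate slides.

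Casp1 read 666 and 742 in young adult mice and 555 and 554 in aged mice. The ages did not overlap, with the aged arrays lower. The log2 fold change was -0.34 (SE 0.095, limma FDR = 0.325), a 1.27-fold lower level, and it was -0.26 on the shared slide and -0.42 between the separate slides.

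Nfkbia and Tnfaip3 encode brakes on the pathway, IκBα, which holds NF-κB in the cytoplasm, and A20, an enzyme that edits ubiquitin chains on signaling proteins. Both are textbook targets of NF-κB. Nfkbia read 11840 and 12370 in young adult mice and 14924 and 14877 in aged mice. Its means were 12105 ± 375 and 14900 ± 33.6 (SD, n = 2), and the log2 fold change of 0.30 (SE 0.077) carried the smallest limma FDR of the 10 genes, 0.309.

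Tnfaip3 read 669 and 589 in young adult mice and 764 and 739 in aged mice. Again both aged arrays lay above both young adult arrays, with a log2 fold change of 0.26 (SE 0.10, 95% interval -0.05 to 0.57, limma FDR = 0.435). The difference was 0.19 on the shared slide and 0.33 between the separate slides.

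**Figure D3:**
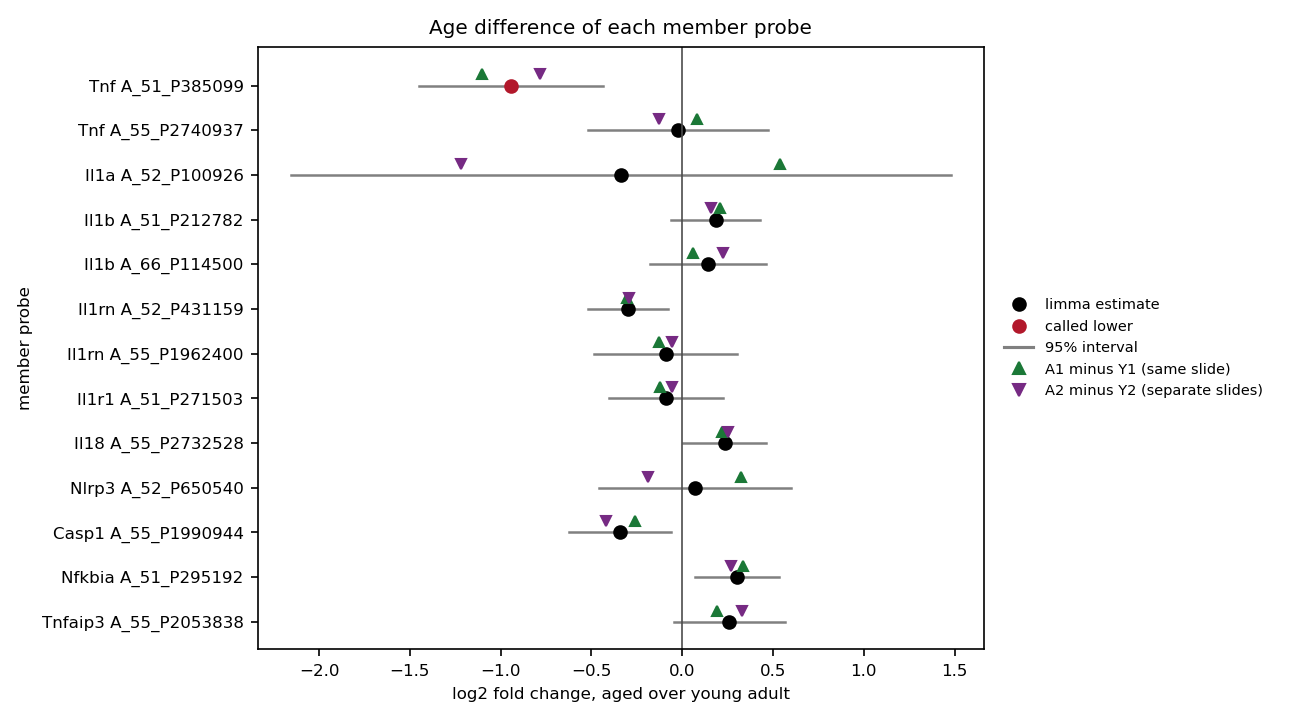
Log2 fold change of aged over young adult mice (horizontal axis) for each of the 13 member probes, with 95% intervals from limma and the differences of the 2 pairs of arrays, the pair on 1 slide and the pair on separate slides. The probe in red, Tnf A_51_P385099 at -0.94, is the one that was called, and the interval of Il1a rests on readings near background.

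The promoters of both brakes and of Tnf are shown because these members are linked by NF-κB: they are classical targets of the factor, and 2 of them limit it. Each is a RefSeq window of the mouse build GRCm38.p6, from 250 bases before to 50 bases after the annotated start, printed 5′ to 3′ in the direction of the gene, with matches to the NF-κB consensus in capitals. Nfkbia lies at chr12:55492598-55492897 on the minus strand, Tnfaip3 (the second of its 2 windows) at chr10:19015361-19015660 on the minus strand, and Tnf at chr17:35201958-35202257 on the minus strand.
Nfkbia: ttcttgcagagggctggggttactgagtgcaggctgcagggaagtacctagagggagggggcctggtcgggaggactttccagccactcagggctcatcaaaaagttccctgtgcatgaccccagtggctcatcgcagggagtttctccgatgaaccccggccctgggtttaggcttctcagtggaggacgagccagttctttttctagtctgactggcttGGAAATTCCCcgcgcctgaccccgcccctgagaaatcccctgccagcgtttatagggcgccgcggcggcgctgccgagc
Tnfaip3: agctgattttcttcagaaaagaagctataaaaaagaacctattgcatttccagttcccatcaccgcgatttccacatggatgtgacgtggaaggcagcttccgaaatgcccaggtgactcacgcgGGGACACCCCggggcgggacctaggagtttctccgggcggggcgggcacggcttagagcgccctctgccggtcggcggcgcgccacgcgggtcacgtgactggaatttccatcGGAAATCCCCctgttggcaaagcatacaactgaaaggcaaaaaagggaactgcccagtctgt
Tnf: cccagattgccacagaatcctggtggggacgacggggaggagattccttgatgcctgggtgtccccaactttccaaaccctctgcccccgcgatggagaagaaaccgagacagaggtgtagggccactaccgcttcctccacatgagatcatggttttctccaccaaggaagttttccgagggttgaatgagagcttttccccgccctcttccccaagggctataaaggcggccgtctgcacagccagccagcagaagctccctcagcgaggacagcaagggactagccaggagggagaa
Letters on either strand were searched. Nfkbia held 1 match, which began 29 bases before the start. The first Tnfaip3 window, at chr10:19011914-19012213, held no match and is not printed. The second held matches at 2 positions, beginning 125 and 12 bases before the start, of which the first matched on both strands. The Tnf window held none, which says only that these letters are not in this window. Among all 10 members, which had 15 windows in the table, 4 windows of 4 genes held a match (Il1r1, Nlrp3, Nfkbia and Tnfaip3), beside 8.46% of the 32851 windows of that length and 9.55% of the 27025 genes in the table. A match is a run of letters and was not set against any binding data.

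The wider system was described through 8 lists of pathway genes, 121 genes in all with the members included. Of these 121, 4 were called higher and 7 lower in aged mice, beside 1.65% and 2.33% of all genes, and the median log2 fold change was -0.04. These shares, and 13.1% of all genes at an unadjusted P below 0.05, stand beside the counts of each list below. Most of the calls were among the genes that TNF and IL-1 are known to induce. These calls use P and FDR alone. Ltb and Ccl20 (each 1.49-fold lower), Csf1 (1.36-fold lower) and Txnip (1.38-fold higher) fell short of the 1.5-fold limit of the methods. Il6, at a mean level of 75.3 over the arrays, fell short of the limit of 100 that the methods set on mean expression.

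**Figure D4:**
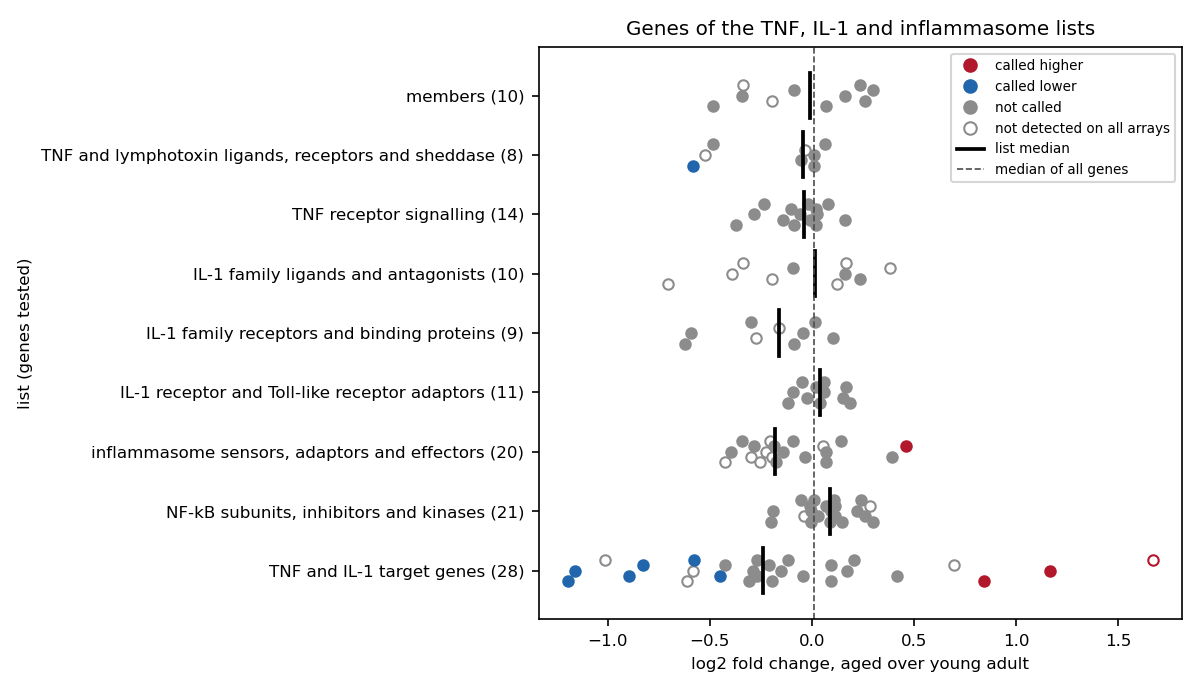
Log2 fold change of aged over young adult mice (horizontal axis) for every gene tested of the members and of the 8 pathway lists; each point is a gene, open where it was not well above background on all 4 arrays, with a bar at the median of the list. The target genes spread widest, from Mmp13 at -1.19 to Il6 at 1.67, with Il6 not firmly measured in young adult mice, while the adaptors stay between -0.12 and 0.19.

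Among TNF and lymphotoxin ligands, receptors and the sheddase ADAM17, 1 of 8 genes was called, as lower, beside 2.33% of all genes. It was Ltb, whose product anchors lymphotoxin to the cell surface and supports lymphoid tissue. Ltb read 587 and 539 in young adult mice and 360 and 394 in aged mice, and fell by 0.58 on the log2 scale (SE 0.10, limma FDR = 0.237). The list's median was -0.04.

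The 14 genes of TNF receptor signaling were all well above background on every array and none was called, with 1 at an unadjusted P below 0.05 and a median of -0.04. The widest was Ripk3, a kinase of necroptosis, which read 207 and 202 in young adult mice and 153 and 162 in aged mice. Its log2 fold change of -0.37 (SE 0.08) had a limma FDR of 0.273.

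Of the 10 IL-1 family ligands and antagonists, 3 were well above background on all arrays, among them Il1b and Il18, and 3 on none (Il1f8, Il1f9 and Il1f10, of the IL-36 and IL-38 branch). None was called, 1 had an unadjusted P below 0.05, and the median was 0.02. The 9 receptors and binding proteins had a median of -0.16, with 0 called and 2 at an unadjusted P below 0.05. Il1r2, the decoy receptor that binds IL-1 and does not signal, was the widest of them at 231 and 256 in young adult mice against 139 and 179 in aged mice (log2 fold change -0.62, SE 0.17, limma FDR = 0.314). Il1rl2 and Il18rap were well above background on none of the arrays. The 11 adaptors shared by IL-1 and Toll-like receptors were all well above background, and 0 were called by limma or reached an unadjusted P below 0.05. The widest of them was Tollip, a negative regulator of IL-1 receptor signaling, at a log2 fold change of 0.19 (limma FDR = 0.455).

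Among 20 inflammasome sensors, adaptors and effectors, 1 was called higher and 0 lower, beside 1.65% and 2.33% of all genes, and 14 lay below 0. The median was -0.18, and 6 had an unadjusted P below 0.05, beside 13.1% of all genes. The one called was Txnip, which binds thioredoxin and is known to engage NLRP3 under oxidative stress. Txnip read 5606 and 5841 in young adult mice and 7769 and 7994 in aged mice, a log2 rise of 0.46 (SE 0.079, limma FDR = 0.233). Both of its probes were higher, by 0.52 and 0.41, and 1 of them was called.

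The 21 NF-κB subunits, inhibitors and kinases held no called gene, with 1 at an unadjusted P below 0.05, and 14 lay above 0. Their median was 0.09, and 10 of 21 were higher on both aged arrays and 2 were lower on both, beside 24.2% and 21.8% of all genes. Nfkbia was the widest of them.

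Of 28 target genes of TNF and IL-1, 3 were called higher and 6 lower, beside 1.65% and 2.33% of all genes. An unadjusted P below 0.05 was found for 12, beside 13.1% of all genes, 19 lay below 0, and the median was -0.24. Those called lower were Mmp13, Mmp9, Tnfaip6, Cxcl5, Ccl20 and Csf1. The collagenase gene Mmp13 read 2307 and 2222 in young adult mice and 956 and 1024 in aged mice and fell by 1.19 on the log2 scale (SE 0.085, limma FDR = 0.178). The gelatinase gene Mmp9 fell by 1.16, with 1 probe called at -1.46 and 1 not called at -0.86. Tnfaip6, whose product binds hyaluronan, fell by 0.90.

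The chemokine genes Cxcl5 and Ccl20 were also called lower. Cxcl5, whose product draws neutrophils, read 3485 and 3808 in young adult mice and 1985 and 2124 in aged mice and fell by 0.83 (limma FDR = 0.191). Ccl20, whose product draws cells bearing the receptor CCR6, fell by 0.58 (limma FDR = 0.203). Csf1, the growth factor of macrophages and osteoclasts, fell by 0.45, the nearest of the calls to the threshold (limma FDR = 0.246). Its probes gave log2 fold changes of -0.53, which was called, and of -0.44 and -0.37, which were not.

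The 3 called higher were Il6, Lcn2 and Csf2. Il6, a cytokine of the acute phase, read 32.9 and 39.3 in young adult mice and 113 and 116 in aged mice, and was called with a limma FDR of 0.178. In young adult mice only 1 of its probes was well above background, and on 1 array. The fitted log2 rise of 1.67 therefore has no firm size, and it ran from 0.94 to 2.95 over the alternatives. Lcn2, an antibacterial protein that binds siderophores, read 2151 and 2195, then 4688 and 5068, a log2 rise of 1.17. Csf2, the growth factor of granulocytes and macrophages, read 176 and 183, then 317 and 328, a log2 rise of 0.84. The target genes called in aged mice thus lay on both sides, and Cxcl2, Saa3 and Csf3 were well above background on none of the arrays.

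Of the marker lists for other cells of the mucosa, 6 held genes called lower in aged mice, and their part in the results above was not tested. Over all genes, 2.33% were called lower. Of 15 macrophage and monocyte markers, all well above background on every array, 5 were called lower (Cx3cr1, Ccr2, Cd68, Mrc1 and C1qc) and 0 higher. Their summed level was 39709 to 40407 in young adult mice and 34690 to 36872 in aged mice, and most of it is Ly6c2, which was not called and overlapped between ages (log2 fold change -0.09). Of 10 neutrophil and granulocyte markers tested, 5 were called lower (S100a8, S100a9, Retnlg, Ngp and Ltf), with sums of 379657 to 397190 and 288934 to 298507, most of which is Ltf. Ltf read 265972 and 254071 in young adult mice, beside 7201 and 7524 for S100a9. Which cells carried Ltf was not tested, so neither its call nor the sum is a measure of neutrophils. Of the 5, Retnlg and Ngp were not well above background on aged array 1. Csf3r, also a large part of the sums, went the other way: it was higher on both aged arrays and not called (log2 fold change 0.10).

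Of 6 osteoclast markers, 4 were called lower (Acp5, Ctsk, Dcstamp and Atp6v0d2), with sums of 51799 to 52403 and 18019 to 18131. Osteoclasts also express Mmp9. Of 4 fibroblast markers, Col1a1 and Col3a1 were called lower, by log2 values of -1.98 and -1.97, with sums of 119036 to 134734 and 75795 to 81390, most of which is Dcn, not called and overlapping between ages (-0.19). Among 4 endothelial markers Kdr was called lower, with sums of 2911 to 2914 and 1983 to 2151, and among 3 basal cell markers Krt5 was, with sums of 28327 to 28654 and 22480 to 22970.

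The other lists held no called gene. The sums were 993 to 1309 and 1009 to 1046 for 7 T and NK cell markers, of which Cd8a and Ncr1 were well above background on none of the arrays, 7716 to 8013 and 6572 to 7979 for 5 B cell markers, and 842 to 904 and 895 to 904 for 5 mast cell markers. Most of the B cell sum is Jchain, which overlapped between ages (log2 fold change -0.14). For 8 markers of mature olfactory neurons the sums were 539129 to 546739 and 589006 to 598344. All 8 were higher on both aged arrays, beside 24.2% of all genes, with a median log2 fold change of 0.15. Of the 8, 1 had an unadjusted P below 0.05, beside 13.1% of all genes. These are normalized levels in bulk RNA and do not count neurons. By staining, the paper counted fewer mature olfactory neurons in aged mice. For 5 sustentacular markers the sums were 820713 to 823675 and 841272 to 852515, and for 4 markers of ciliated cells 24959 to 25724 and 23656 to 23999.

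**Figure D5:**
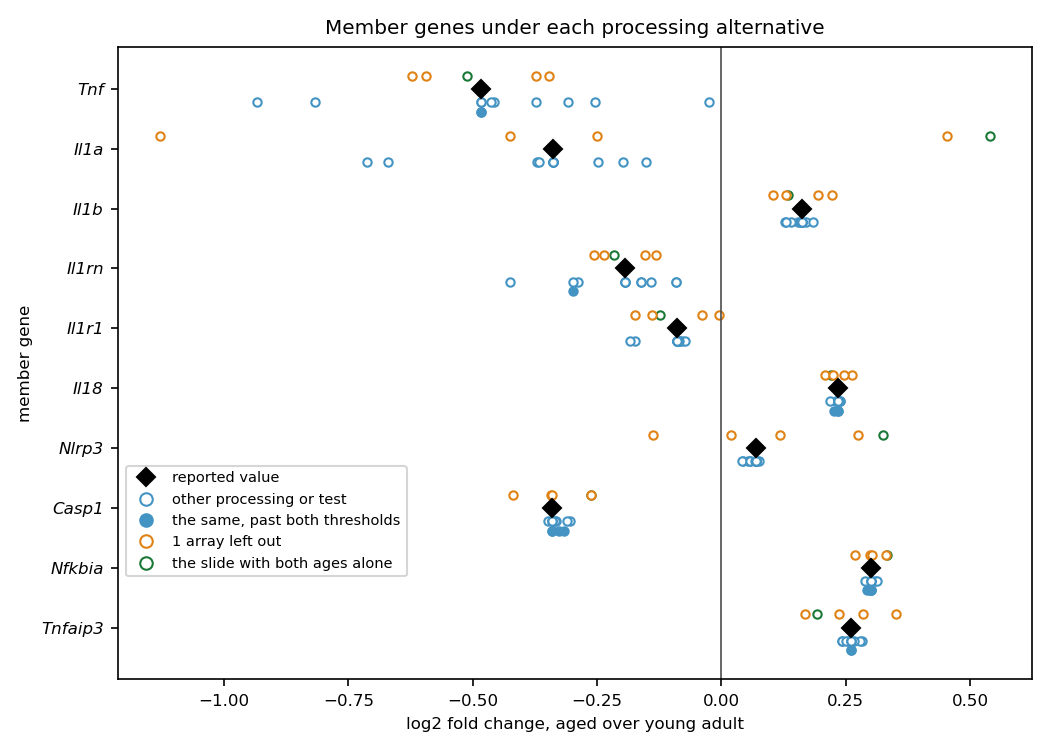
Log2 fold change of each member gene (horizontal axis) as reported and under each alternative, with filled points past both thresholds; orange points leave out 1 array and green points use only the slide that holds both ages. Nfkbia, Il18, Tnfaip3 and Il1b stay above 0 and Casp1 below 0 under every alternative run, Il1a, near background on 3 of the 4 arrays, has no usable direction, and Tnf runs from -0.93 to -0.02.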

How the data were processed

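Gene expression was measured on 4 Agilent one-color arrays of mouse nasal mucosa, 2 per age, and every array held the pooled RNA of 5 mice. The authors labelled the RNA, scanned the arrays and extracted spots with Feature Extraction 11.0.1.1, and they deposited for each spot the median intensity of the spot and of its surroundings, an intensity processed by the scanner software, and quality flags. The deposited series table holds those processed values again (62976 of 62976 spots equal on every array). The deposited values were not normalized between arrays.

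From these intensities, background was corrected with normexp (offset 0, median signals in place of the planned mean signals) in limma 3.58.1 under R 4.3.3. Control spots and 88 to 118 outlier spots per array were left out, spots of a probe were averaged on the log2 scale, arrays were quantile normalized, and probes of a gene were averaged. Accessions, without versions, were matched to RefSeq gene symbols for 32994 of 56605 probes, and 1 listed gene (Ly6g) had no probe. Levels are normalized intensities, and a probe was taken as well above background by the scanner flag. Ages were compared with lmFit and eBayes over all genes and, separately, all probes, without covariates, and called at P below 0.05 and Benjamini-Hochberg FDR below 0.25. The background share of each call was counted over everything tested. The fit was tested beforehand on simulated data with independent noise and no slide effects, so that test does not bear on the member results. The number of arrays limits the precision, and the lowest signal well above background was 22.5 to 37.1, depending on the array.

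The members, pathway lists and marker lists were chosen with earlier results of these data known. Named genes were all members and probes, each called gene of a pathway list or otherwise its widest gene well above background on all arrays, and called markers. Alternatives were other offsets or no background correction, the processed intensity, other normalizations, flagged spots kept and probes dim at both ages left out. Further ones were an intensity trend, the replicate number as a block, 1 slide alone, each array left out and the most intense probe of a gene. The difference between probes of a gene was added after the data were seen.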

Additional observations from a re-analysis of the deposited data

How the results depend on the processing

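Counts of member genes called higher and lower were 0 and 0 as reported. They became 3 and 2 with an intensity trend, and 3 and 3 without probes dim at both ages. They became 2 and 1 with an offset of 50, 1 and 1 without background correction, and 1 and 0 with the quantile-normalized processed intensity. The filter on dim probes kept a probe of Tnf and a probe of Il1rn through the young adult arrays alone, so its lower calls are not independent of the filter. Counts of member probes, 0 and 1 as reported, became 3 and 2, 3 and 3, 1 and 2, 1 and 2, and 1 and 2 under the same settings in that order. Counts of pathway list genes, 4 and 7 as reported, became 13 and 16, 13 and 28, 9 and 14, 7 and 14, and 7 and 12 in that order. With the most intense probe of each gene, 11 pathway genes were called lower. Over all genes, where 754 and 1063 were called as reported, the counts in that order were 3612 and 3518, 3445 and 3706, 2107 and 2475, 1788 and 2239, and 2029 and 2343, so they moved over the whole table. With the replicate number as a block, which rests on a shared number and not on a known pairing (deviations of same-numbered arrays from their group means correlated at -0.08), 0 member genes, 0 member probes and 0 pathway genes were called in either direction, and 0 of all genes. With any 1 array left out, the counts ranged from 0 to 0 for the same sets. At an unadjusted P below 0.05, limma found 6 pathway genes higher and 16 lower under the block, and 4 to 5 higher and 8 to 17 lower with 1 array left out. In these fits with 1 array left out, the lone array of an age is assumed to vary like the other age.

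The Tnf probe that was called kept its direction in every alternative run, from -1.76 with the quantile-normalized processed intensity to -0.49 with an offset of 50, and was called in 11 of 16 fits with a test, the exceptions being the block (FDR = 0.412) and each array left out (FDR = 0.387 to 0.664). With each array left out, directions turned for Il1a (-1.13 to 0.45, above 0 without young adult array 2, though 3 of its 4 readings are not well above background and its direction has no meaning), for Nlrp3 (-0.14 to 0.28, below 0 without young adult array 1) and for the brighter Tnf probe (-0.20 to 0.16, above 0 without young adult array 2 or, at 0.05, aged array 1). They also turned for the Il1rn probe below background, without background correction (0.0078), with the processed intensity scaled to the 75th percentile (0.24) and without young adult array 1 (-0.21 to 0.028 over the arrays left out). For none of these was the cause tested. Slide as a random block could not be fitted with 4 arrays on 3 slides. Signal over background limits Il1a, the dim Tnf probe and both Il1rn probes.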

Other observations

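Around caspase-1, other inflammasome genes outside the rule for naming, chosen after their values were seen, lay on both sides. Pycard, the adaptor that joins sensors to caspase-1, read 2733 and 2901 in young adult mice and 2046 and 2232 in aged mice (log2 fold change -0.40, SE 0.094, limma FDR = 0.291). Casp4, the caspase that senses lipopolysaccharide inside cells, read 1778 and 1729 in young adult mice and 2380 and 2223 in aged mice (log2 fold change 0.39, SE 0.084, limma FDR = 0.271). Gsdmd, the pore protein that caspases cut, read 445 and 445, then 386 and 398, a log2 fold change of -0.18 (limma FDR = 0.447). None of the 3 was called.

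The TNF receptor genes stood close to 0. Tnfrsf1a, the receptor found on most cells, read 1897 and 1943 in young adult mice and 1937 and 1926 in aged mice (log2 fold change 0.0086, SE 0.075). Tnfrsf1b, found mainly on immune and endothelial cells, read 129 and 144, then 151 and 125 (log2 fold change 0.01, SE 0.14). The ages overlapped for both.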
